A study of Arabidopsis thaliana with 40 samples.

Results

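The regions described here are the wide peaks of H2Aub1 increase on the chromosome arms of Arabidopsis thaliana. Each peak marks a stretch in which monoubiquitinated histone H2A (H2Aub1) was higher in the ubp12/13 double mutant than in wt. A peak was taken as a member when it was at least 1500 bp wide and began outside the pericentromeric block of its chromosome. By this rule 277 of the 1285 merged peaks were members, 709 were narrower peaks on the arms, and 299 began in a pericentromeric block. The rule used width and position alone, and no expression value entered it. The 5 members just inside the limit were 1502 to 1508 bp wide, and the 5 arm peaks just outside it were 1489 to 1499 bp wide.

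The peaks came from ChIP-seq of rosette leaves of wt (Col-0) and ubp12/13, 2 replicates each, from plants grown for 15 days on medium and then for 2 weeks on soil. They were compared with RNA-seq of whole seedlings grown for 15 days on medium and harvested 6 to 8 h after the lights came on, with 3 libraries each of wt (Col-0), ubp12, ubp13 and ubp12/13. The transcripts are therefore from younger plants and from more organs than the chromatin. ubp12 carries the insertion allele ubp12-1, ubp13 carries ubp13-3, which is a weak allele, and ubp12/13 carries both, in a Col-0 background throughout. The double mutant is small and sterile. In such bulk samples a smaller share of a cell type and less RNA per cell cannot be told apart.

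H2Aub1 is placed by Polycomb repressive complex 1 (PRC1) and is removed in plants by the related ubiquitin-specific proteases UBP12 and UBP13. Polycomb repressive complex 2 (PRC2) trimethylates lysine 27 of histone H3 (H3K27me3), and the demethylase REF6 takes this mark off again. Together the complexes hold developmental and stress-response genes in a low state until they are needed.

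Counts on nuclear genes ranged from 6545534 to 9494373 per library in wt, from 6822401 to 9109250 in ubp12, from 10190084 to 12768034 in ubp13 and from 12145023 to 15225396 in ubp12/13. Levels are given as CPM, read counts scaled to a common library size with TMM. UBP12 had 95.8 to 101 CPM in wt, 23.3 to 27.4 in ubp12 and 27.2 to 36.3 in ubp12/13. UBP13 had 62.6 to 63.6 CPM in wt, 149 to 171 in the libraries labelled ubp13 and 77.9 to 80.9 in the libraries labelled ubp12/13. The UBP13 counts are summed over the whole gene, before and after the insertion, and the gene overlaps AT3G11900, so they cannot check the ubp13 label. Organelle reads made up 6.15% of wt replicate 3 and 0.268% to 1.52% of the other libraries. The 3 leaf marker genes summed to 39492 to 46623 CPM in wt and to 29991 to 35921 in ubp12/13, none of the 3 passing that test. Against the sum of the single mutants the 3 lay at -1.13 to -0.53 on the log2 scale, with 1 of them, AT1G29930, called lower, and the part of this in the results below was not tested. The 3 root markers summed to 111 to 168 CPM in wt and 123 to 153 in ubp12/13. In wt and in ubp12/13, 2 of the 3 had no read, so each sum comes from the 1 that was tested. The flower markers summed to 0.545 to 2.12 CPM in wt and, lower without overlap, to 0.227 to 0.378 in ubp12/13. The seed markers summed to at most 0.530 CPM in either.

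REF6 recognises the sequences CTCTGCTC, CTCTGCTT, CTCTGTTC and CTCTGTTT, on either strand. Among the members over the genes named below, 5 with the most of these sites within 200 bases are shown, because they let the letters be read beside the transcripts of the same genes. Each line is the plus strand of the RefSeq TAIR10.1 assembly, whose nuclear coordinates are those of TAIR10, with the sites in capitals.
CUC1, chr3:5110551-5110750: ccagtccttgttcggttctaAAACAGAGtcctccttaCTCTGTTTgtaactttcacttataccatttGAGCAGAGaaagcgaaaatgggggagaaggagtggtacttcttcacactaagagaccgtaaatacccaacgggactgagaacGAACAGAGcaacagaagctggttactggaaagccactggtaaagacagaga
AT-HSFA7B, chr3:23400466-23400665: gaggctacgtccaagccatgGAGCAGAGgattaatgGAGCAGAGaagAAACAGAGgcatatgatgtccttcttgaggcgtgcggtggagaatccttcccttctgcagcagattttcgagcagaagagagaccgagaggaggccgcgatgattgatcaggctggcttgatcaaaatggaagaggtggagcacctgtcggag
PUB18, chr1:3486043-3486242: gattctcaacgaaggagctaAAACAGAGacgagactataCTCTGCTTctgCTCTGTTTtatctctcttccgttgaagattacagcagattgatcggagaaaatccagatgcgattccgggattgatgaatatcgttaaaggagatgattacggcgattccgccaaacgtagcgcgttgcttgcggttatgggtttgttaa
AGL15, chr5:4450671-4450870: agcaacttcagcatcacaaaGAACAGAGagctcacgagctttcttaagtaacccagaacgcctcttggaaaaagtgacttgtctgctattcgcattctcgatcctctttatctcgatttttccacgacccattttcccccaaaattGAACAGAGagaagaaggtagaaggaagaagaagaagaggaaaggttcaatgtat
AT5G41780, chr5:16724312-16724511: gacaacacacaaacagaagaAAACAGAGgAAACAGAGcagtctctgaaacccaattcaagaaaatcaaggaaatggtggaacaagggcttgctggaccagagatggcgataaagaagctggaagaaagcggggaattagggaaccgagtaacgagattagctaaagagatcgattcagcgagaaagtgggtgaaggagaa
All 5 stretches lie downstream of the annotated start of their gene, from 88 bases after it in AGL15 to 2272 bases after it in AT5G41780. CUC1 held 4 sites in this stretch and 6 in its whole peak, and AT-HSFA7B held 3 and 7, a count that no member exceeded and 3 members reached.

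Such runs of sites were the exception. Over whole peaks the median member held 1 REF6 site, 127 members held 0, and 20 held 4 or more. In the central 1500 bp, 45.1% of members had at least 1 REF6 site (95% Wilson interval 39.4% to 51.0%), against 36.3% of all 65087 tiles of 1500 bp on the arms. In the 18017 tiles with at least 50% coding sequence the share was 44.9%. Members are richer in G and C than the arms, with a median of 40.8% against 35.9% for the arms overall and 39.9% for the coding-rich tiles.

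The RY element and the G-box differed more from the tiles than REF6 sites did, and the telobox and GA repeat differed less from all arm tiles. The RY element (CATGCA or its complement), which B3-domain factors bind, was in 70.4% of members (64.8% to 75.5%), in 45.2% of arm tiles and in 40.4% of coding-rich tiles. The G-box (CACGTG), which bHLH and bZIP factors bind, was in 32.1% of members (26.9% to 37.8%), 15.9% of arm tiles and 13.4% of coding-rich tiles. The telobox (AAACCCTA or its complement) was in 20.2% of members (15.9% to 25.3%), against 16.5% of arm tiles and 13.8% of coding-rich tiles. A GA repeat (GAGAGAGA or its complement) was in 22.7% (18.2% to 28%), against 21.9% and 19.7%. The windows of the narrow arm peaks had RY elements in 60.6% and G-boxes in 31.5%, so the G-box share lay within the interval of the members and the RY share lay below it. Narrow peaks are at most 1499 bp wide, so their windows also hold sequence outside the peak. Per kb of the peaks themselves, RY elements were nearly as frequent in narrow (1.04) as in wide peaks (1.09), beside 0.491 on the arms. The difference between wide and narrow was not tested. These are matches of letters and not measured binding. The plot of motif shares shows all 5 motifs.

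**Figure D1:**
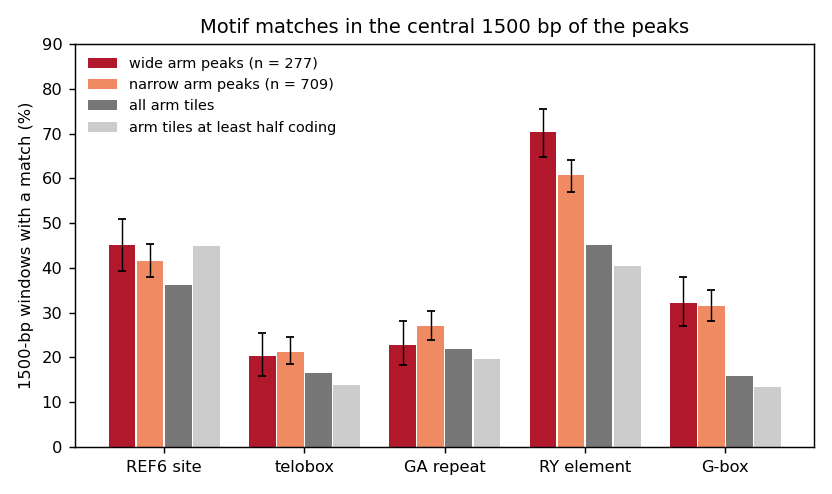
Share of 1500-bp windows (vertical axis, %) with at least 1 match to each motif on either strand, for the centres of the 277 wide and 709 narrow arm peaks and for tiles of the arms. Error bars are 95% Wilson intervals. RY elements (70.4%) and G-boxes (32.1%) were more frequent in the wide peaks than in either kind of tile, and REF6 sites (45.1%) were as frequent as in coding-rich tiles (44.9%).

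The members were 1502 to 9807 bp wide, with a median of 1901 bp and quartiles of 1673 and 2344 bp. They were 21.6% of all peaks and held 581020 bp, which was 29.7% of all bases under peaks. At 2000 bp or more there were 121 members, at 3000 bp or more 15, and at 4000 bp or more 4. Chromosomes 1 to 5 carried 76, 39, 46, 52 and 64 of them, or 2.43 to 3.57 per Mb of arm, so no arm was free of them. They were spread out, with a median of 213 kb from one to the next and 15 of 272 within 10 kb of the next. The merged peaks occurred in both ChIP replicates, but the column deposited beside them is 1 throughout, so members cannot be ranked by height, and no read depth comes with a peak.

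The wide peaks were peaks on genes. Of the 277, 269 (97.1%, 94.4% to 98.5%) overlapped a protein-coding gene, against 90.7% of narrow arm peaks (88.3% to 92.6%) and 23.1% of pericentromeric peaks. Coding sequence made up 53.9% of their bases and 32.9% of the arms, and sequence between genes made up 16.8% and 32.5%. A single protein-coding gene lay under 202 members, 58 held 2, 9 held 3 or more, and 8 held 0. An entire protein-coding gene lay inside 67 members (24.2%, 19.5% to 29.6%) and inside 70 narrow arm peaks (9.87%, 7.89% to 12.3%). A wide interval takes in a start site or a whole gene more readily than a narrow one, so these shares rise with width by construction.

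For each member the protein-coding gene with the longest overlap was taken as its main gene. The 269 main genes were 1975 bp long in the median, close to the 2078 bp of all protein-coding genes, and a median of 89.1% of their length was covered. For the 643 main genes of narrow peaks the covered median was 49.0%. The member contained the start site in 200 cases and the end in 89, both in 60 and neither in 40. It began a median of 158 bp upstream of the start site and ended a median of 150 bp before the gene's end. Coverage was highest at 600 bp downstream of the start, where 92.6% of the main genes were covered. At 500 bp upstream 23.4% were covered and at 2000 bp downstream 31.6%. Peak width and the length of the main gene were only weakly related across the 269 pairs (Pearson's r = 0.08, Spearman's rho = 0.19), which is a description across genes.

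**Figure D2:**
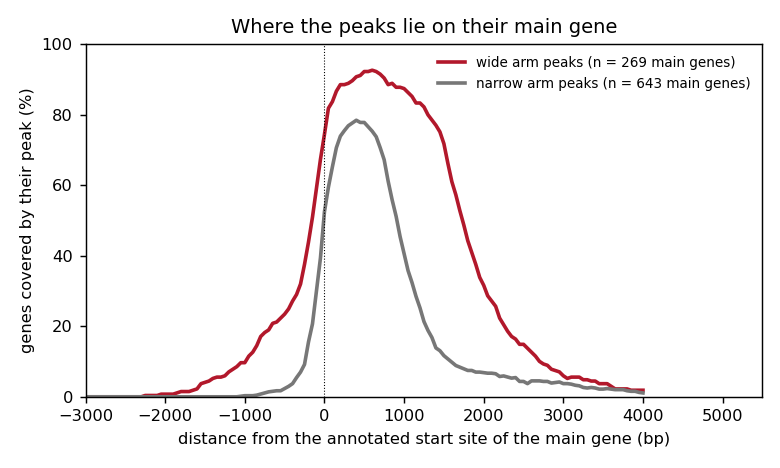
Share of main genes covered by their peak (vertical axis, %) by distance from the annotated start site (horizontal axis, bp, transcribed sequence to the right), for 269 genes under wide and 643 under narrow arm peaks. Coverage under the wide peaks reached 92.6% at 600 bp and was still 87.4% at 1000 bp, where the narrow peaks covered 40.6%. Wider peaks cover more of a gene by construction.

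In all, 379 annotated genes overlapped a member by at least 1 bp, of which 352 were in the count table. These were 335 protein-coding genes, 11 pseudogenes and 6 non-coding RNA genes, and BBX14 lay under 2 members. Of the 335, 73 lay wholly inside a peak, 270 were covered over at least 50% of their length and 239 had their start site covered. They were sorted by words in their product names. Transcription factors were 28 of them (8.36%, against 6.65% of all protein-coding genes). Oxidases, cytochromes P450 and peroxidases were 28 (8.36% against 2.98%), cell wall enzymes 22 (6.57% against 2.35%) and transferases 22 (6.57% against 4.76%). Receptors and kinases were 10 (2.99% against 5.87%), and genes without a described product 31 (9.25% against 14.0%). No test was made of these shares, and the words miss some genes, such as the NAC factor CUC1 and the factor bZIP3.

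**Figure D3:**
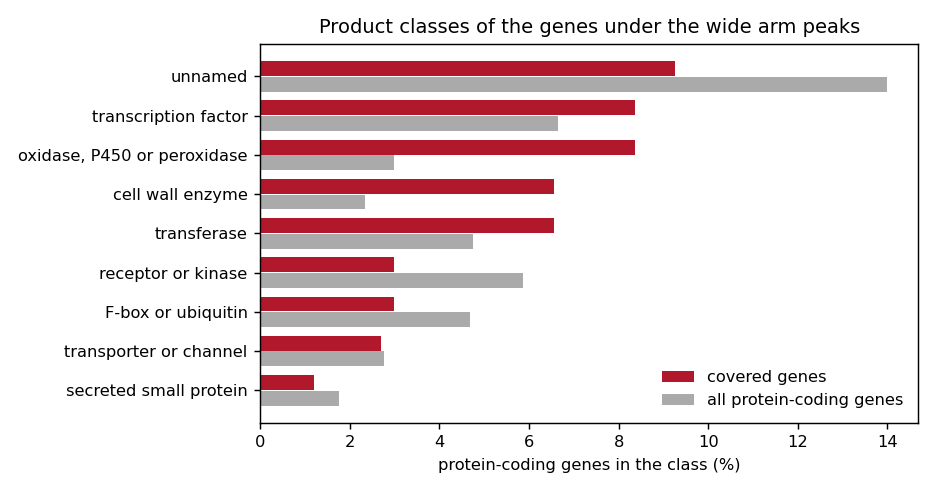
Percentage of protein-coding genes in each product class (horizontal axis), for the 335 covered genes and for all protein-coding genes, without the remaining genes with other named products. Oxidases, P450s and peroxidases were 8.36% of covered and 2.98% of all genes, and receptors and kinases 2.99% and 5.87%.

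Genes under the members had few transcripts in wt seedlings. The median covered protein-coding gene had 0.144 CPM per kb of exon in wt, against 2.89 for all protein-coding genes. Genes under the other peaks were similarly low in wt, with medians of 0.115 for narrow arm and 0.161 for pericentromeric peaks. The low level is thus not particular to the wide peaks. The medians of the genes under the members were 0.147 for ubp12 and for ubp13, and 0.163 for ubp12/13. More than 1 CPM in all 3 libraries of a genotype was reached by 112 of the 335 (33.4%) for wt, 116 for ubp12, 115 for ubp13 and 119 (35.5%) for ubp12/13. For all protein-coding genes the share was 60.8% in wt and 61.7% in ubp12/13. No read at all in wt was seen for 115 covered genes (34.3%, against 20.8% of all and 35.4% under narrow arm peaks), and in ubp12/13 for 90 (26.9%, against 18.9% of all). The ubp12/13 libraries were deeper than those of wt, and a count of genes without reads falls with depth. No read in any of the 12 libraries was seen for 71 of the 335 (21.2%).

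Of the 352 covered genes, 150 had more than 1 CPM in at least 2 libraries of wt and ubp12/13 and were tested there, and the other 202 were below that filter. A gene was called when its edgeR adjusted p was under 0.05 and its log2 fold change (log2FC) at least 1 in either direction. In ubp12/13, 21 of the 150 were higher and 15 lower than in wt. Over all 17916 genes tested, 5.94% were higher and 4.02% lower, where 14.0% of the covered genes were higher and a further 15 of 150 lower. Under the narrow arm peaks 40 of 232 tested genes were higher and 28 lower, and the difference between wide and narrow was not tested. The median log2FC of the 150 was 0.04, with quartiles of -0.31 and 0.60, and that of all tested genes was 0.00. All 3 ubp12/13 libraries lay above all wt libraries for 41 of the 150 (27.3%, against 24.1% of all tested genes) and below them for 28 (18.7%, against 22.6%). Of the 21 higher genes, 7 had under 2 wt libraries above 1 CPM and so passed the filter through ubp12/13, and of the 15 lower genes 5 passed it through wt. Changes ran in both directions, and 81 of 150 log2FC values were above 0. Without the genes of the widest peak, where ribosomal RNA genes lie, the count lower was 12 and the median 0.09.

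In ubp12, 2 of 141 tested covered genes were higher and 1 lower, where 0.469% and 0.215% of all 17712 genes were. Their median log2FC was 0.03. In the libraries labelled ubp13, 0 of 140 were called in either direction, where 0.0227% of all 17615 genes were higher and 0.00568% lower. DESeq2 also called 0 and 0 there. Of the 140, 17 (12.1%) had an unadjusted edgeR p under 0.05, against 6.26% of all tested genes. The median log2FC of the 140 was 0.01.

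**Figure D4:**
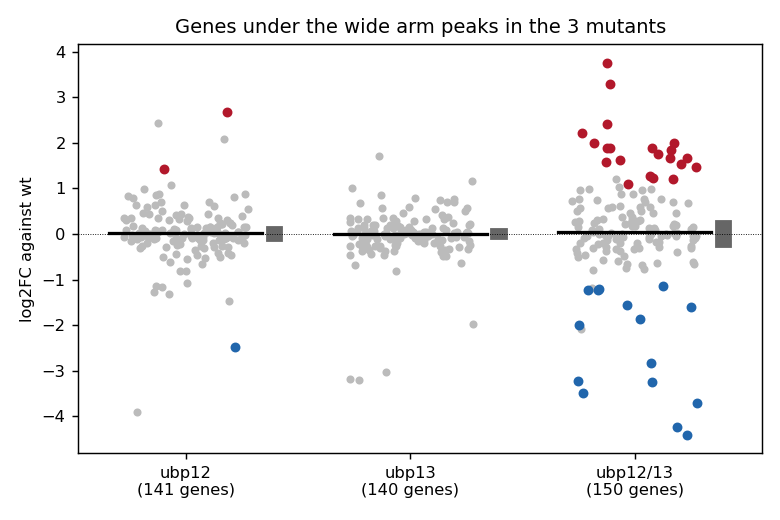
log2FC against wt (vertical axis) of the covered genes tested in each mutant, 1 point per gene. Red and blue points are genes called higher or lower, black bars are the medians of the covered genes, and dark boxes at the right span the quartiles of all tested genes. The ubp12/13 column holds 21 red and 15 blue points, ubp12 holds 2 and 1, and ubp13 holds 0.

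The 36 called genes lay under 31 members, and 28 of them had their start site covered. Among protein-coding genes with the start site inside the peak, 17 of 98 tested were higher and 9 lower in ubp12/13, and with it outside, 4 of 47 were higher and 4 lower. Genes wholly inside a peak had 5 of 21 higher and 3 lower. Those covered by less than 50% had 3 of 46 higher and 4 lower. Over all tested genes 5.94% were higher and 4.02% lower. Among the called genes wholly inside a peak, LEA4-5 passed the filter through ubp12/13 alone, and bZIP3 and PDF1.2 through wt alone. The groups are small, and the difference between them was not tested.

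Among the genes higher in ubp12/13, FMO (AT1G12200, chr1:4137511-4140158), a flavin-binding monooxygenase, had 4.36, 3 and 4.21 CPM in wt and 20.8, 23.0 and 18.3 in ubp12/13. It had 3.37 to 4.79 in ubp12 and 2.65 to 5.29 in the libraries labelled ubp13, so the double mutant alone stood apart. Its log2FC in ubp12/13 was 2.42 ± 0.17 (SE, edgeR adjusted p = 5.84e-05), and the peak covered its start site and 87.0% of its length.

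ACS8 (AT4G37770), an ACC synthase of ethylene synthesis, had 0.763, 1.87 and 0.312 CPM in wt and 4.31, 3.02 and 4.16 in ubp12/13 (log2FC 1.89 ± 0.42, edgeR adjusted p = 0.00993). ELI3-2 (AT4G37990), a cinnamyl alcohol dehydrogenase of the phenolic pathways, had 1.20, 1.37 and 0 CPM in wt and 4.69, 2.19 and 4.46 in ubp12/13. All 3 mutant libraries lay above wt for both genes. ACS8 had 1 wt library above 1 CPM and so passed the filter through ubp12/13. The ELI3-2 log2FC was 2.00 ± 0.58 (edgeR adjusted p = 0.0295), and leaving out 1 library raised that p to 0.0953 at most. CXE13 (AT3G48700), a carboxylesterase, had 1.42, 0.874 and 1.25 CPM in wt and 4.39, 5.15 and 4.77 in ubp12/13 (log2FC 1.99 ± 0.23, edgeR adjusted p = 0.000434).

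A pair of UDP-glycosyltransferase genes, enzymes that attach sugars to hormones and other small molecules, shared 1 member of 3734 bp. AT1G05675 had 0.763, 1.37 and 0.779 CPM in wt and 3.40, 2.37 and 4.92 in ubp12/13 (log2FC 1.84 ± 0.39, edgeR adjusted p = 0.00784). Its neighbour UGT74E2 rose as well, from 6.39 to 14.7 CPM in wt to 23.1 to 44.0 in ubp12/13, without overlap (log2FC 1.67). Covered transferases as a class had 9 genes tested, of which 4 were higher and 1, CHAT, lower, where 5.94% and 4.02% of all tested genes were. All 4 were UDP-glycosyltransferases, this pair among them. AT1G05675, UGT75B2 and AT2G16890 had under 2 wt libraries above 1 CPM and passed the filter through ubp12/13. The count is therefore no result about the class.

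LEA4-5 (AT5G06760, chr5:2089445-2090430), a late embryogenesis abundant protein of seeds and dehydrated tissue, was nearly silent outside the double mutant. It had 1 count in each wt library, 0 to 2 in the ubp12 and ubp13 libraries, and 7, 29 and 45 counts in ubp12/13. Summed over libraries this was 3 counts against 81, a ratio of 14.7 per library size with a 95% counting interval of 4.86 to 72.8. The adjusted p was 0.0173 by edgeR and rose to at most 0.0685 when any 1 of the wt libraries was left out. LEA4-5 passed the filter through 2 ubp12/13 libraries alone, so that it could enter the test only by being higher there. The whole gene lay in a member of 2854 bp, which also held part of AT5G06750, a protein phosphatase 2C gene that was higher too (log2FC 1.22). LEA4-5 lies 61.3 kb and AT5G06750 58.2 kb from UBP12 and both are thus linked to the ubp12-1 insertion. In ubp12, which carries the same insertion, LEA4-5 had 0 or 1 counts. The part of this linkage in the change of either gene was not tested.

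GRP3S (AT2G05380), a glycine-rich secreted protein, was by far the most abundant of the named higher genes. It had 239, 242 and 186 CPM in wt and 1101, 1252 and 765 in ubp12/13, and it had 113 to 217 in ubp12 and 171 to 206 in the libraries labelled ubp13. The log2FC in ubp12/13 was 2.22 ± 0.19 (edgeR adjusted p = 0.000111). Reads of GRP3S and of its close relative GRP3 may be assigned uncertainly. AT3G27250, an uncharacterised protein, had 1.53, 0.624 and 2.65 CPM in wt and 13.3, 16.3 and 16.0 in ubp12/13 (log2FC 3.29 ± 0.30, edgeR adjusted p = 0.00017). It was also above wt in every ubp12 library, with 8.46, 3.02 and 8.44 CPM, without passing the test there (log2FC 2.09, edgeR adjusted p = 0.0586).

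AT5G64870, a membrane-associated protein with an SPFH domain, had 1.31, 1.12 and 1.09 CPM in wt and 4.69, 3.84 and 4.77 in ubp12/13 (log2FC 1.88 ± 0.22, edgeR adjusted p = 0.000498). MEE69 (AT4G37140), a hydrolase gene, had 2 counts in each wt library and 16, 21 and 6 in ubp12/13. The ratio of its summed counts per library size was 3.90, with a 95% counting interval of 1.65 to 11.2. Its edgeR adjusted p of 0.0367 rose above the threshold when any of the wt libraries was left out and with DESeq2 (0.0852), and MEE69 too passed the filter through 2 ubp12/13 libraries alone. MEE69 shared its member with MES9, a methyl esterase, which was higher as well (log2FC 1.63).

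Among the genes lower in ubp12/13, PME2 (AT1G53830), a pectin methylesterase, had 0.981, 0.999 and 1.25 CPM in wt and 0 or 1 counts per library in ubp12/13. Its summed counts were 25 in wt and 2 in ubp12/13, lower by 23.0 times with a 95% counting interval of 5.72 to 200.0 times. The edgeR adjusted p was 0.00148. AT1G67750, a pectate lyase, had 8.18, 5.99 and 5.92 CPM in wt and 2.12, 2.54 and 1.97 in ubp12/13 (log2FC -1.60 ± 0.20, edgeR adjusted p = 0.000687). BXL1 (AT5G49360), a beta-xylosidase, had 398, 873 and 620 CPM in wt and 198, 201 and 250 in ubp12/13 (log2FC -1.55 ± 0.25, edgeR adjusted p = 0.00227). TBL39 (AT2G42570) had 5.34, 7.99 and 6.39 CPM in wt and 2.65, 2.66 and 3.10 in ubp12/13 (log2FC -1.23 ± 0.20), but only 4.12% of its length, at its 3′ end, was under the member.

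For these 4 genes no ubp12 log2FC passed the test. By product class, 7 of the 22 covered cell wall enzymes were tested, and 2 (PME2 and AT1G67750) were lower and 0 higher in ubp12/13, where 4.02% and 5.94% of all tested genes were. DESeq2 gave 2 and 0 as well. PME2 had 2 wt libraries and 0 ubp12/13 libraries above 1 CPM, so it passed the filter through wt. The count is therefore no result about the class. Of the 7, 3 had an unadjusted p under 0.05, where 42.5% of all tested genes did.

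CYP71B22 (AT3G26200, chr3:9589249-9591179), a cytochrome P450, had the lowest fitted log2FC of the covered genes. It had 5.13, 5.24 and 4.83 CPM in wt, 2.34 to 7.91 in ubp12 and 4.48 to 6.58 in the libraries labelled ubp13, and 0.151, 0.355 and 0.151 in ubp12/13. The log2FC was -4.41 ± 0.31 (edgeR adjusted p = 6.17e-05), and the peak ran from 5 bp before its start to near its end, over 97.2% of the gene. CHAT (AT3G03480), the acetyltransferase that makes the green leaf volatile hexenyl acetate, had 8.83, 8.99 and 6.08 CPM in wt and 1.13, 1.18 and 1.06 in ubp12/13 (log2FC -2.83 ± 0.22, edgeR adjusted p = 7.96e-05). Both genes fell in every ubp12/13 library below every wt library.

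bZIP3 (AT5G15830), a transcription factor wholly inside its member, had 1.31, 1.75 and 1.87 CPM in wt and 0.378, 0.473 and 0.454 in ubp12/13 (log2FC -1.87 ± 0.33, edgeR adjusted p = 0.00331). AT5G41780, a myosin heavy chain-like protein, had 12, 12 and 15 counts in wt and 2 in each ubp12/13 library. Its summed counts were lower by 11.9 times, with a 95% counting interval of 5.02 to 34.5 times (edgeR adjusted p = 0.000736). CYP71B22, bZIP3 and AT5G41780 had 0 ubp12/13 libraries above 1 CPM and so passed the filter through wt.

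The remaining genes called in ubp12/13 fall outside the naming rule and are given here after their values were seen. BRU6, an enzyme of the GH3 family that conjugates auxin to amino acids, had 0.872, 1.62 and 0.779 CPM in wt, 1.94 to 2.05 in the libraries labelled ubp13 and 2.95, 2.84 and 3.56 in ubp12/13 (log2FC 1.48 ± 0.30, edgeR adjusted p = 0.00625). MGL, the methionine gamma-lyase, had 13.2, 14.1 and 14.6 CPM in wt and 32.8, 35.7 and 33.3 in ubp12/13 (log2FC 1.28 ± 0.09), but it overlaps BDG1, whose log2FC was -0.57. The glycosyltransferases AT2G16890 and UGT75B2 (log2FC 1.57 and 1.22), the lipid-transfer-like protein AT3G18280 (1.67) and the Rossmann-fold protein AT4G09750 (1.09) were higher as well, each without overlap of the libraries. BRU6, AT2G16890 and UGT75B2 had under 2 wt libraries above 1 CPM and so passed the filter through ubp12/13.

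BIR1, a receptor kinase that restrains immune signalling, had 25.8, 31.2 and 19.3 CPM in wt and 87.6, 51.8 and 120 in ubp12/13 (log2FC 1.75 ± 0.30), although only 49 bp of it lay under a member. AT3G17640, a leucine-rich repeat protein, had 29.7, 30.7 and 29.3 CPM in wt and 12.9, 14.9 and 11.3 in ubp12/13 (log2FC -1.20 ± 0.11), and the subtilase AT5G45650 was also lower (log2FC -1.13 ± 0.17). PDF1.2, a defensin induced by jasmonate and ethylene, had 10.9, 7.37 and 0.156 CPM in wt and 0.530, 0.473 and 0.454 in ubp12/13. wt replicate 3 was thus below the mutant libraries and the groups overlapped, although the test passed (log2FC -3.70 ± 0.88, edgeR adjusted p = 0.0134). PDF1.2 passed the filter through 2 wt libraries alone. It has near-identical family members, so its reads may be assigned uncertainly.

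Of the 28 covered genes with transcription factor words in their product, 14 were tested in ubp12/13 by edgeR, and 0 were called, where 9.96% of all tested genes were, with log2FC from -0.48 to 1.03. DESeq2 called 0 as well, and 2 of the 14 had an unadjusted edgeR p under 0.05, where 42.5% of all tested genes did. The words leave out bZIP3, which was lower, and with so few genes a share of 0 is no result about the class.

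**Figure D5:**
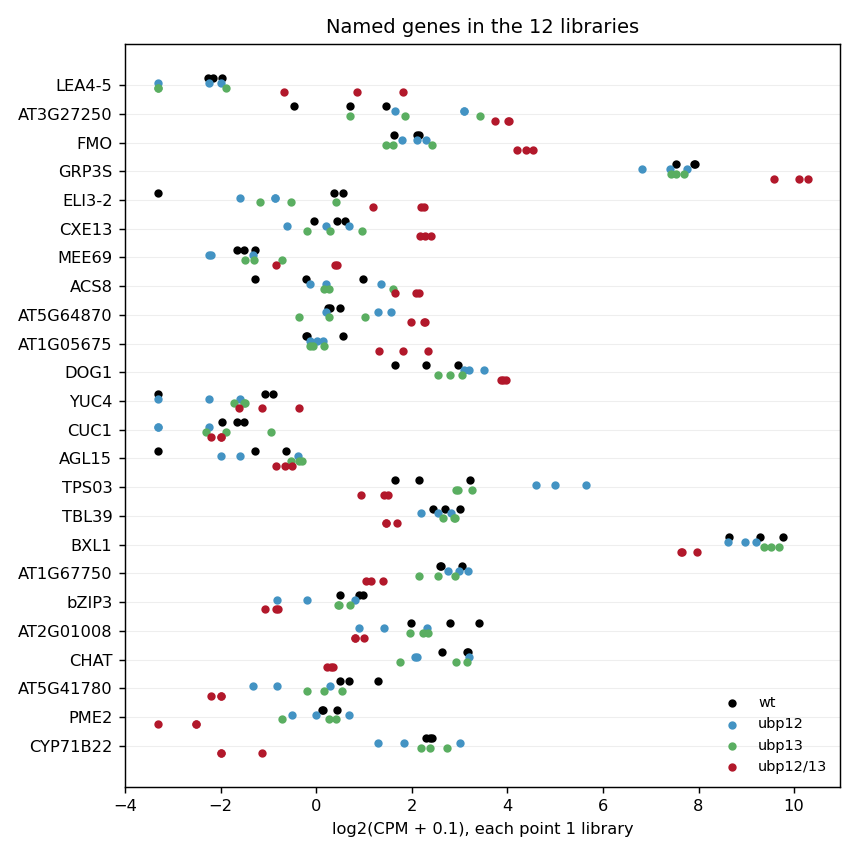
log2(CPM + 0.1) of named genes under the wide arm peaks (horizontal axis), each point 1 library, coloured by genotype, genes ordered by their log2FC in ubp12/13. The red ubp12/13 points lie right of the black wt points for LEA4-5 to DOG1 and left of them for TPS03 to CYP71B22. For TPS03 the blue ubp12 points lie right of all others, and YUC4, CUC1 and AGL15 lie near the left edge in every genotype.

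TPS03 (AT4G16740), a terpene synthase that makes the leaf volatile ocimene, moved in opposite directions in ubp12 and ubp12/13. It had 3.05, 9.24 and 4.36 CPM in wt, 50, 24.2 and 32.0 in ubp12, 7.69, 9.43 and 7.43 in the libraries labelled ubp13 and 2.57, 2.72 and 1.82 in ubp12/13. The log2FC was 2.68 ± 0.36 in ubp12 (edgeR adjusted p = 0.00515) and -1.22 ± 0.39 in ubp12/13 (edgeR adjusted p = 0.0443). The call in ubp12 was kept under every library left out. The call in ubp12/13 was lost with 5 of 6 libraries left out in turn, and without wt replicate 2 its log2FC was -0.62 (edgeR adjusted p = 0.156).

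The other 2 ubp12 calls were less firm. PUB18 (AT1G10560), a U-box ubiquitin ligase, had 1.64, 1.75 and 2.18 CPM in wt, 5.90, 5.47 and 3.17 in ubp12 and 1.66 to 2.37 in ubp12/13 (ubp12 log2FC 1.42 ± 0.29, edgeR adjusted p = 0.0394). JRG21 (AT3G55970), an oxygenase that inactivates jasmonate, had 17, 9 and 9 counts in wt, 2, 1 and 3 in ubp12 and 30, 26 and 39 in ubp12/13. Its summed counts in ubp12 were lower by 5.98 times per library size, with a 95% counting interval of 2.49 to 17.4 times (edgeR adjusted p = 0.0441). Leaving out 1 library raised the adjusted p to at most 0.162 for PUB18 and 0.167 for JRG21.

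Whether the double mutant departs from what its 2 mutations give separately was asked by subtracting the ubp12 and the ubp13 log2FC from that of ubp12/13. Over all 18212 genes tested, 3.23% lay above and 3.14% below that sum. Of 152 covered genes tested, 14 lay above and 11 below. Of the 36 genes called in ubp12/13, 18 had an adjusted p under 0.05 in this contrast, all in the direction of their change. Of all 1784 genes called in ubp12/13, 788 had such a p, 781 of them in the direction of their change, so the covered share (50%) lay near the share of all called genes (44.2%). Of the 21 genes higher in ubp12/13, 17 were tested in ubp12, with a median log2FC of 0.12 there and 1.75 in ubp12/13. Of the 15 lower genes, the median was -0.42 in ubp12 and -1.99 in ubp12/13. All these comparisons share the wt libraries.

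The 5 widest members were described whole. The widest, chr2:847-10653, covers a copy of the ribosomal RNA genes at the start of chromosome 2, with the 18S gene AT2G01010 and the 5S-annotated gene AT2G01020. The 18S gene had 1197, 571 and 13109 CPM in wt, 676 to 2776 in ubp12, 518 to 597 in the libraries labelled ubp13 and 397 to 792 in ubp12/13. wt replicate 3, which also had the most organelle reads, was far above all other libraries, and the groups overlapped. The log2FC in ubp12/13 was -3.24 ± 1.04 (edgeR adjusted p = 0.0439), and without wt replicate 3 it was -0.74 (edgeR adjusted p = 0.205). For AT2G01020 the corresponding values were -3.24 and -0.83 (edgeR adjusted p = 0.044 and 0.216). Ribosomal RNA genes lie in many near-identical copies, so neither the peak nor these counts can be assigned to this copy. AT2G01008, in the same member, had 6.87, 3.87 and 10.4 CPM in wt and 1.66, 1.89 and 1.66 in ubp12/13 (log2FC -1.99 ± 0.34, edgeR adjusted p = 0.00289). AT2G01021 had 154, 68.8 and 940 CPM in wt and 142, 52.5 and 79.8 in ubp12/13 (log2FC -2.09 ± 0.84, edgeR adjusted p = 0.0926). AT2G01023 and AT2G01022 had at most 1.12 CPM in any library.

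The next member, chr3:23398563-23402878, covers AT-HSFA7B, a heat stress transcription factor, the defensin-like gene AT3G63360 and the start of OTP86, a chloroplast RNA editing factor. AT-HSFA7B and AT3G63360 had 0 counts in all 12 libraries. OTP86 had 13.7, 10.9 and 8.57 CPM in wt and 12.8, 11.1 and 10.1 in ubp12/13 (log2FC 0.01 ± 0.18). The same silence beside activity was seen under chr1:24612167-24616180. There AAE11, an acyl-activating enzyme, had 0 counts in all libraries, and AT1G66130, an oxidoreductase-like gene, had 74.7, 64.2 and 74.3 CPM in wt and 71.1, 74.6 and 69.6 in ubp12/13 (log2FC 0.01 ± 0.09). PUB18, described above, lies under chr1:3482568-3486623. The fifth, chr2:19349430-19353233, covers 3 neighbouring short-chain dehydrogenase genes. Of these SDR3 had 2.40, 0.499 and 0.312 CPM in wt and 1.06, 1.89 and 1.82 in ubp12/13, with overlap, and SDR5 and AT2G47150 had 0 or 1 counts in every library.

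Of 36 known Polycomb target genes, 4 lay under members, namely CUC1, AGL15, DOG1 and YUC4. DOG1 (AT5G45830, chr5:18589418-18591506), the regulator of seed dormancy, was the 1 that passed the filter. It had 3.05, 7.74 and 4.83 CPM in wt, 8.46, 9.07 and 11.3 in ubp12, 5.72, 8.16 and 6.82 in the libraries labelled ubp13 and 15.5, 15.0 and 14.5 in ubp12/13 (log2FC 1.53 ± 0.26, edgeR adjusted p = 0.00277). The ubp12 libraries also lay above wt, without passing the test (log2FC 0.89, edgeR adjusted p = 0.158). The peak covered its start site and 73.3% of the gene.

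The other 3 stayed near the limit of detection in every genotype. CUC1 (AT3G15170), which sets organ boundaries, had 2, 2 and 1 counts in wt and 2 in each ubp12/13 library under a member of 3389 bp. AGL15 (AT5G13790), a MADS factor of embryos, had 0 to 5 counts in wt and 6 to 9 in ubp12/13. YUC4 (AT5G11320), an auxin synthesis enzyme, had 0 to 4 counts in wt and 3 to 9 in ubp12/13. These 3 were below the filter and were not tested. Of the whole list of 36, 11 were tested in ubp12/13 by edgeR, with 5 higher (AGL19, FLC, DOG1, MAF4 and MAF5) and 0 lower, beside 5.94% and 4.02% of all tested genes. Of 22 genes for Polycomb proteins and their partners, 0 lay under a member, 19 were tested, and 1 was higher and 0 lower. With 5.94% of all tested genes higher, 1 of 19 is no result about these genes. The higher one, the PRC1 gene RING1B (AT1G03770), named after its value was seen, had a log2FC of 1.15.

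In 12 members at least 2 genes were tested. All their log2FC values had the same sign in 6 of these and differed in sign in the other 6. At least 2 genes were called in 4 members, namely the ribosomal RNA member and those of UGT74E2, MES9 and LEA4-5. The kit used for the RNA libraries does not mark strand, so reads of overlapping genes on opposite strands cannot be told apart. Among the genes named with values this touches AT5G06750, AT2G01008, AT2G47150, AT4G09750, MGL and UBP13, which overlap other annotated genes.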

How the data were processed

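The RNA-seq files hold unnormalised read counts for each gene as deposited by the authors, made by trimming with cutadapt 1.18, mapping to TAIR10 with TopHat2 2.11 and counting with HTSeq 0.11.1, per the submitters' processing notes, without pooling of replicates. For the peaks of H2Aub1 increase the authors called broad H2Aub1 peaks over H3 with MACS2, compared ubp12/13 with wt in each replicate with MAnorm, and merged the peaks of increase that overlapped between the 2 replicates. A merged peak thus occurred in both replicates but carries no value per replicate, and merging can widen it. The column deposited beside each position is 1 throughout and was not used. Peaks of decrease and other marks were not analysed here. Starts in the peak list were read as counted from 0 and are printed counted from 1.

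Each mutant was compared with wt in edgeR 4.0.16 (R 4.3.3) on the 6 libraries of the pair, with TMM scaling, a quasi-likelihood test and Benjamini-Hochberg adjustment over the nuclear genes that exceeded 1 CPM before scaling in 2 or more of those libraries. Every adjusted p comes from this test unless DESeq2 1.42.0 is named. The contrast with the sum of the single mutants used all 12 libraries. Depth was 6545534 to 15225396 counts per library, and intervals cover counting error only. Replicates are separate samples per the labels. Of 33323 nuclear gene IDs, 32835 matched the RefSeq annotation of TAIR10.1. All members were kept in every step, whether their genes passed the filter or not. The scripts were tested on simulated data.

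Members, lists and the rules for naming genes were chosen with earlier results of these data known. Named were all genes under the 5 widest members, up to 10 genes in each direction with the largest called change in ubp12/13 and no overlap of libraries, at most 3 each way for the single mutants, the covered known Polycomb targets, UBP12 and UBP13. Neighbours of these genes under the same member, and genes used as examples of a class, were chosen after their values were seen. Alternatives were other scalings, filters, DESeq2, a common fit, a replicate block, thinned counts, no fold-change minimum, other definitions of a covered gene, wider members, and each library left out. The counts without the widest member or without genes near UBP12 and UBP13, and the tiles with at least 50% coding sequence, were added after seeing the data.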

Additional observations from a re-analysis of the deposited data

Results flagged for a closer look

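For 14 covered genes among those named, the double mutant departed from the ubp12 and ubp13 effects added on the log2 scale at an edgeR adjusted p under 0.05, which is a test of the difference itself over all 12 libraries. The difference was below 0 for TPS03 (-4.46 ± 0.49 SE, adjusted p = 9.89e-05), CYP71B22 (-4.36 ± 0.63, 0.000605), PME2 (-3.97 ± 0.85, 0.00727) and CHAT (-2.08 ± 0.53, 0.0192). It was also below 0 for PUB18 (-2.02), AT1G67750 (-1.59), BXL1 (-1.42) and TBL39 (-1.11). It was above 0 for ELI3-2 (3.68 ± 0.99, adjusted p = 0.0248), JRG21 (3.45 ± 0.83, 0.0137), GRP3S (2.89 ± 0.30, 6.91e-05) and FMO (2.43 ± 0.35, 0.000565), and for CXE13 (2.11) and AT1G05675 (2.06). For TPS03, PUB18 and JRG21 the ubp12 libraries stood apart from wt while the ubp12/13 libraries did not follow them, and for the other 11 the ubp12/13 libraries alone stood apart. All 14 were named for a called change in ubp12 or ubp12/13 without overlap, so standing apart from wt follows from the naming. The contrast reuses the same libraries. The cause was not tested.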

How the results depend on the processing

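In ubp12/13 the counts of 21 covered genes higher and 15 lower stayed within 1.5 times in most settings. They were 12 higher with more than 1 CPM required in all libraries, 24 lower with no fold-change minimum, and 9 and 6 for peaks of at least 2000 bp, which cover 179 genes in place of 352. Leaving out 1 library gave 18 to 20 and 11 to 14. DESeq2 gave 20 and 15, and leaving out genes within 1 Mb of UBP12 or UBP13 gave 19 and 15. Library totals moved the median of all genes in ubp12/13 to 0.15. The covered median of 0.04 became 0.20 with totals, 0.18 with no filter, 0.10 thinned, 0.10 for the first 1 kb, 0.021 for peaks of at least 2000 bp and 0.092 without the widest peak, and 0.018 to 0.12 with 1 library left out.

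In ubp12, 2 higher became 1 in the common fit, thinned, at 50% of the gene body and at 2000 bp, and 1 lower became 0 with more than 1 CPM in all libraries, DESeq2, the common fit, thinning or 2000 bp and 2 with no filter. With 1 library left out they were 1 to 3 and 0 to 1. The ubp12 median became -0.0018 in the common fit, 0.050 thinned, 0.047 at 500 bp of overlap, 0.10 at 50% of the gene body and 0.0066 at 2000 bp, and 0.0092 to 0.054 with 1 library left out. The ubp13 median became -0.043 with totals and 0.049 with no filter, and -0.025 to 0.066 with 1 library left out. Departures from the sum of the single mutants went from 14 above to 8 with more than 1 CPM in all libraries, and from 11 below to 17 with no fold-change minimum.

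Ratios to the arm tiles were 1.24 for REF6 sites, 1.56 for RY elements and 2.02 for G-boxes. Per kb of whole peak they were 1.47, 2.22 and 2.55, and against coding-rich tiles 1.01, 1.74 and 2.40. The cause of these shifts was not tested. The replicate numbers do not pair the samples, with same-number correlations of -0.06, -0.17 and -0.12 in ubp12/13. With the replicate block, 20 genes were higher and 13 lower there. Of the single genes named, 407 values kept their side of the threshold, 47 lost it and 3 gained it. None that passed the test changed sign, while OTP86, PUB18 and AT1G66130, none of them called in ubp12/13, did. Genes with a few counts per library, such as LEA4-5 and MEE69, are limited by depth.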

Other observations

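Some product families recurred under the members. They were picked after the products had been read, so their counts are descriptions. Of 27444 protein-coding genes, 335 (1.22%) were covered. Among 148 genes whose product names a late embryogenesis abundant protein, an oleosin, a seed maturation protein or a cupin, 12 (8.11%) were covered. The words are not limited to products of seeds, and 48 of the 148 were tested in ubp12/13. Of these 12, 11 had under 1 CPM on average both in wt and in ubp12/13, 5 had no read in any library, and LEA4-5 was the 1 tested. OLEO1, an oleosin of seed oil bodies, and CRA1, a seed storage protein, were among them. Among 151 genes with a cysteine- and histidine-rich C1 domain, 13 (8.61%) were covered, all 13 with under 1 CPM on average in wt and in ubp12/13.

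Of 21 genes for 3-ketoacyl-CoA synthases, which elongate fatty acids for wax and suberin, 4 (19%) were covered and 3 tested in ubp12/13, with 0 called by edgeR. Of 146 UDP-glycosyltransferase genes, 8 (5.48%) were covered, and the 4 that were tested in ubp12/13 were all higher, namely UGT74E2, AT1G05675, AT2G16890 and UGT75B2, the first 2 of them under 1 peak. Of the 93 tested in the whole family 16 were higher, and of all tested genes 5.94% were. Of the 4, AT1G05675 and UGT75B2 had 1 wt library above 1 CPM and AT2G16890 had 0. These genes passed the filter through ubp12/13, so the filter partly sets how many of the tested genes are higher. Of 248 cytochromes P450, 10 (4.03%) were covered and 6 tested, with 0 higher and 1, CYP71B22, lower.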
